A study of Mus musculus with 4 samples.

Results

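Imprinted genes are expressed from the allele inherited from 1 parent, and 35 of them were examined here in ATAC-seq peak lists (assay for transposase-accessible chromatin, in which Tn5 transposase cuts open DNA) of mouse hippocampus at postnatal day 0. The 35 genes were chosen by name from textbook knowledge of imprinting. They were 29 protein-coding and 6 noncoding genes, all matched in the GENCODE annotation, out of 32093 protein-coding and long noncoding genes ranked. A promoter peak was a peak whose summit lay within 2 kb of an annotated transcription start site (TSS) of the gene. In at least 1 list, 30 of the 35 members had one, beside 16187 of the 32093 ranked genes.

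There were 2 cKO and 2 Ctrl libraries, each from hippocampal nuclei. The cKO mice carried the genotype given as Kdm2bEmx1-delta-CxxC, in which Emx1-Cre removes the CxxC zinc finger of KDM2B, the domain with which this polycomb component binds unmethylated CpG islands. Emx1-Cre acts in the dorsal telencephalon, so blood vessels, microglia and interneurons that migrate in keep the intact gene. The Ctrl mice were Kdm2bfl/+ or Kdm2bfl/fl, and no label says which library had which. Peak names within the deposited lists carry the string Kf-+ in Ctrl replicate 1 and Kf-f in Ctrl replicate 2, which no label explains, so a difference of genotype between the Ctrl libraries cannot be told apart from their other differences. The source label of every library named neural progenitor cells, whereas the titles and protocol named hippocampus, which is used here. A promoter peak cannot show the loss of an internal exon, so genotypes rest on the labels. No label says whether the replicates came from separate animals, so the spread between them may be technical. In bulk tissue, fewer cells with an open site and less opening per cell cannot be told apart.

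The lists differed widely, and every comparison below depends on it. They held 21404 peaks in cKO replicate 1, 44535 in cKO replicate 2, 46389 in Ctrl replicate 1 and 7037 in Ctrl replicate 2. In Ctrl replicate 2, 60.6% of the peaks were mostly repeat-masked sequence, against 5.37% to 14.7% in the others. Of 8 marker genes of dorsal telencephalon and hippocampus, 4, 8 and 7 had a promoter peak in cKO replicate 1, cKO replicate 2 and Ctrl replicate 1, and 0 in Ctrl replicate 2. The 4 microglial and the 4 endothelial markers had 0 in every list, interneuron markers 1, 2, 3 and 0 of 6, choroid plexus markers 1, 1, 1 and 0 of 3, red blood cell markers 0, 1, 1 and 0 of 3, and markers of other tissues 0 of 4. Ctrl replicate 2 thus could not be checked against its tissue.

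Most imprinted clusters are controlled by a germline differentially methylated region (DMR), a CpG-rich stretch that is methylated in the egg or the sperm and keeps that mark in the embryo. At a maternally methylated DMR the paternal copy is unmethylated and often serves as a promoter. The zinc finger protein ZFP57 binds the methylated form of TGCCGC and keeps the mark, while CTCF binds the unmethylated maternal copy of the H19 control region and insulates Igf2 from its enhancers. Many imprinted genes act in growth, placental exchange and brain development. The members fell into 19 whose own promoter, or one of whose promoters, lies at a maternally methylated germline DMR and 16 others. The peak lists hold no alleles, so which parental copy was open was not measured.

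Sequences are shown first for peaks and promoters at known control elements of imprinting, where they held a match to a motif searched. They were read from GRCm38 (the mm10 build) and run 5′ to 3′ on the strand of the named gene. Capitals mark matches, on either strand, to the ZFP57 motif TGCCGC, the CTCF core GGNGGCAG or the YY1 core GCCATCTT. The Mcts2 window is the 200 bases before its TSS (chr2:152686835-152687034, plus strand), within an intron of H13. The first Peg3 window is the 201 bases around the summit of the strong intron peak in Ctrl replicate 1 (chr7:6728346-6728546, minus strand). The Usp29 window surrounds the summit of a second peak in that intron, which lies upstream of Usp29 (chr7:6729417-6729617, plus strand). The Snrpn window is the 200 bases before its internal TSS (chr7:60005112-60005311, minus strand), within the longer annotated gene, and overlaps no peak. The H19 windows surround both summits found 2 to 5 kb upstream of H19 in Ctrl replicate 1, in the H19 control region (chr7:142580273-142580473 and chr7:142581710-142581910, minus strand). None of these windows overlaps an annotated exon.
Mcts2: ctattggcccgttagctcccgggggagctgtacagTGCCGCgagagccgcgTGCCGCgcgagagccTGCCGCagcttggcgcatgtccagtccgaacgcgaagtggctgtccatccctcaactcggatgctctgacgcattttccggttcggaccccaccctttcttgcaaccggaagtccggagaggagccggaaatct
Peg3: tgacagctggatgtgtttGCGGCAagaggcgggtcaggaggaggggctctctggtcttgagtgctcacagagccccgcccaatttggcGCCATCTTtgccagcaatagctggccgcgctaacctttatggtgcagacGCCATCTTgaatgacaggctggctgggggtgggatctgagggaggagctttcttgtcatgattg
Usp29: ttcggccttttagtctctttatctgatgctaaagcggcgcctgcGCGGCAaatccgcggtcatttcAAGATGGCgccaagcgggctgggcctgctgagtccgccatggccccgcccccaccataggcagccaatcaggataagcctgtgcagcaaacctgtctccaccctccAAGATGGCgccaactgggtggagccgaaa
Snrpn: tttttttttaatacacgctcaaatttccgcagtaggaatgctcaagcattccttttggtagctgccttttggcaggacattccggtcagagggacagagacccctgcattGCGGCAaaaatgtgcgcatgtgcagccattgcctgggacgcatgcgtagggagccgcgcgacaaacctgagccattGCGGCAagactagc
H19 nearer: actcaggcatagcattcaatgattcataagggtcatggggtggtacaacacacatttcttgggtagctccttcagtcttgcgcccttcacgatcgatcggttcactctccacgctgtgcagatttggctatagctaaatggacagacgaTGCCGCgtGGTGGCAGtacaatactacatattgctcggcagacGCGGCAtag
H19 farther: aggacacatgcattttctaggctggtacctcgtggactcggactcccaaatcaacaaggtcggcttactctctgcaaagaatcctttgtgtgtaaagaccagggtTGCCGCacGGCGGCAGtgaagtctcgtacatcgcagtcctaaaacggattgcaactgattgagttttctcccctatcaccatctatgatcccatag

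The Mcts2 window held 3 ZFP57 matches. Of 53365 such 200-base windows upstream of annotated TSSs, 8.54% held at least 1 match and 57 (0.107%) held at least 3. Snrpn held 2, and 0.778% of those windows held at least 2. Both Peg3 intron windows held 2 YY1 matches and 1 ZFP57 match. YY1 is a zinc finger factor with a known cluster of sites in the first intron of Peg3. Among all 46389 summit windows of 201 bases in Ctrl replicate 1, 2.48% held a YY1 match and 13 held at least 2, and these 2 windows are among the 13. The count of at least 2 was chosen after the matches had been seen. Over its whole 1738 bp, the stronger Peg3 region held 7 YY1 matches.

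Both H19 windows held TGCCGC followed 2 bases later by a CTCF core on the same strand. This spacing was not a planned measure, and its share over all windows was not counted. Each window held 2 ZFP57 matches, and in the farther one the second lies within the capitals of the CTCF core. A CTCF match was present in 8.58% and a ZFP57 match in 7.64% of all Ctrl replicate 1 summit windows. The matches of the nearer window lay outside the called peak, whose summit was at its edge. The windows of Peg10 at its strongest peak and of Grb10, Kcnq1ot1 and Peg13 before a TSS held no match to any of the 3 motifs, which says only that these letters are not there. Other windows of these genes, which overlap exons and are not printed, did hold ZFP57 matches, 2 around the Grb10 summit and 1 before the Peg10 TSS.

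The ZFP57 motif was common at the TSSs of the germline DMR members, although not each of these TSSs lies at the DMR. In windows from 250 bases before to 50 after each TSS, it was found in 30 of 55 windows (54.5%) of the germline DMR members, 7 of 39 (17.9%) of the other members and 13.2% of all 53365 windows. Among CpG-rich windows, those with at least 55% GC and an observed over expected CpG ratio of at least 0.6 within 250 bp of the TSS, the shares were 29 of 35 (82.9%), 5 of 21 (23.8%) and 25.7%. The CTCF core was in 10.9%, 5.13% and 13.5% of the windows of these 3 sets, and the YY1 core in 0%, 5.13% and 3.08%. Windows of 1 gene overlap, so they are not independent; by gene, 11 of 19 germline DMR members and 2 of 16 other members held a ZFP57 match, beside 15.1% of all ranked genes and 30.0% of genes with a CpG-rich promoter. The 11 include Gnas, with its 3 matching windows at exon 1 and none at exon 1A, and Grb10, with its match at an upstream TSS and none at the TSS nearest its peak, so the shares are those of the genes and not of the DMRs. These are descriptions of sequence and use no peak.

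**Figure D1:**
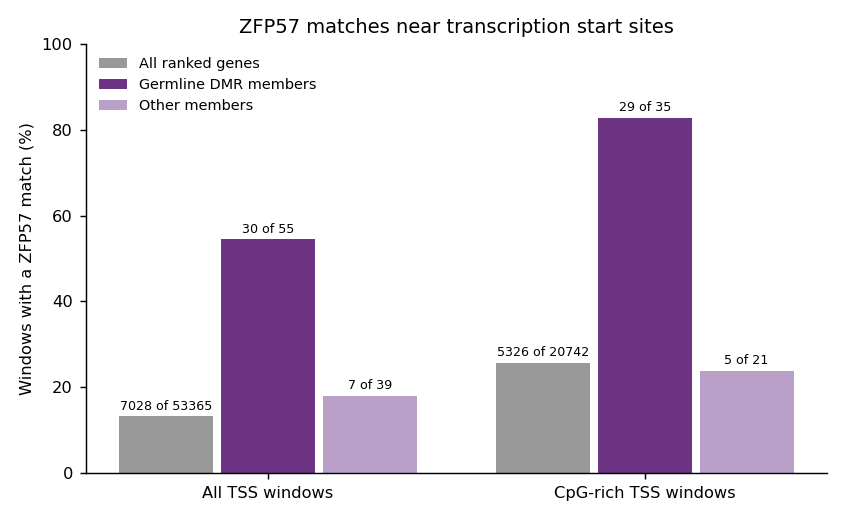
Share of windows from 250 bases before to 50 after a TSS that hold TGCCGC on either strand (y axis, %), for all windows (left) and CpG-rich windows (right); bars stand for all ranked genes, germline DMR members and other members, with the number of windows above each bar. The germline DMR members are highest in both, at 54.5% and 82.9%.

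Promoters of the 35 members had a peak more often than those of genes at large, and within 2 kb more so among members with a germline DMR promoter. A promoter peak was present in 20 of the 35 members in cKO replicate 1, 29 in cKO replicate 2, 28 in Ctrl replicate 1 and 3 in Ctrl replicate 2. Those are 57.1%, 82.9%, 80.0% and 8.57% of the members, beside 32.5%, 46.1%, 48.2% and 6.58% of all ranked genes. Among the 12493 genes with a CpG-rich promoter, as 22 of the members have, the shares were 65.9%, 87.0%, 89.5% and 13.9%, so the 35 members together stood below that class in every list. The 22 members with a CpG-rich promoter stood at 59.1%, 86.4%, 81.8% and 9.09%, nearly level with it in cKO replicate 2. Germline DMR members, at 73.7%, 94.7%, 94.7% and 10.5%, stood above that class in the 3 longer lists and below it in Ctrl replicate 2. The 32 imprinted genes that are not members had one in 18.8%, 46.9%, 46.9% and 3.12%, close to or below all ranked genes. The difference between these genes and the members was not tested, and the members were chosen with earlier results of these data known. Genes with CpG-rich promoters are open in many tissues.

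Germline DMR members had a promoter peak in 14, 18, 18 and 2 of 19 cases in cKO replicate 1, cKO replicate 2, Ctrl replicate 1 and Ctrl replicate 2. Other members had one in 6, 11, 10 and 1 of 16. The 14 include Inpp5f and Gnas, whose only peak in cKO replicate 1 was at a promoter outside the DMR. The share was higher among germline DMR members in every list, and both groups hold 11 genes with a CpG-rich promoter. With the strongest peak within 500 bp of a TSS, the counts were 8, 10, 11 and 1 of 19 against 5, 9, 8 and 1 of 16, so in cKO replicate 2 and Ctrl replicate 2 the order of the shares turned. The higher share thus rests on peaks farther from the TSS in those 2 lists. Each of the 19 germline DMR members had a promoter peak in at least 1 list, against 11 of 16 others. Of all 32093 ranked genes 16187 had one, and of the 12493 with a CpG-rich promoter 11421 did. Some of these peaks are shared: Peg3 and Usp29 had the same strongest peak in both cKO lists. Paternally expressed members had one in 13, 20, 20 and 2 of 24 and maternally expressed ones in 5, 7, 6 and 1 of 9.

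The number of members with a promoter peak averaged 24.5 ± 6.36 (SD, n = 2) in cKO and 15.5 ± 17.7 in Ctrl. This difference of 9 was smaller than the SD in Ctrl, where the counts were 28 and 3. Without Ctrl replicate 2 it turned to -3.5. Scaled depth, the fragments at the summit divided by the mean fragment depth of that library, had medians of 12.1, 19.4, 22.2 and 5.20 over members with a promoter peak in cKO replicate 1, cKO replicate 2, Ctrl replicate 1 and Ctrl replicate 2. Over all genes with a promoter peak they were 11.1, 19.4, 21.6 and 6.06. The members' median was thus close to that of all genes with a promoter peak in each library, and cKO did not separate from Ctrl. Over genes with a CpG-rich promoter the medians were 11.6, 21.6, 25.3 and 6.06. The members' median was above that in cKO replicate 1 and below it in the other lists.

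**Figure D2:**
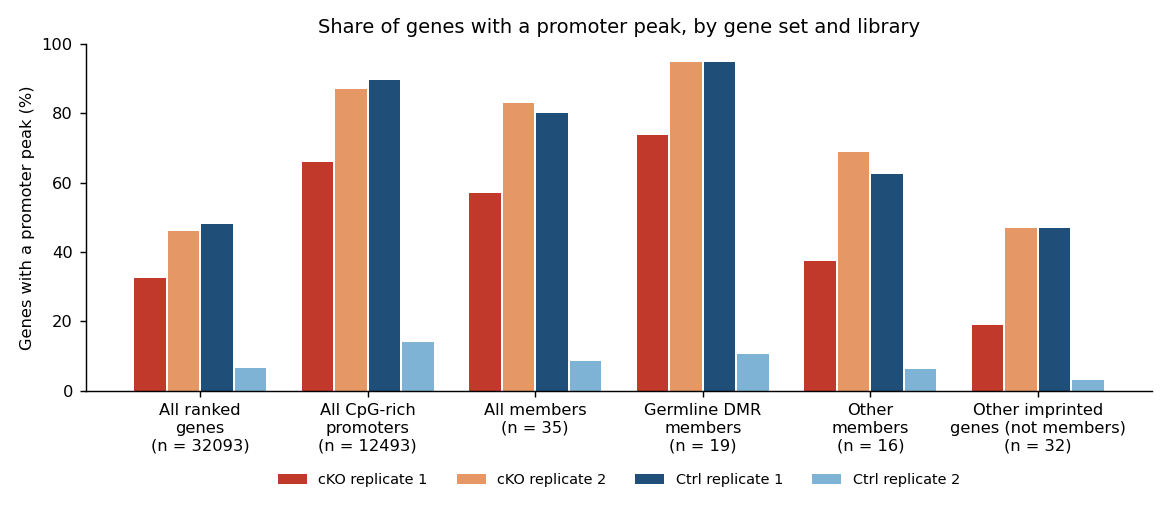
Share of genes with a promoter peak (y axis, %) in 6 gene sets; the 4 bars of a set are the 4 libraries, each of which is 1 sample, so there are no error bars. Germline DMR members reach 94.7% in cKO replicate 2 and Ctrl replicate 1, and every set is lowest in Ctrl replicate 2.

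The promoter percentile, the share of ranked genes whose strongest promoter peak by −log10 p is weaker in the same list, placed the members against all genes. It is 0 for a gene without a promoter peak, and genes with a peak started at 67.5 and 53.9 in the cKO lists and at 51.8 and 93.4 in the Ctrl lists, replicate 1 first. The median over the members was 68.8, 69.5, 68.9 and 0 in that order, and 0 in every list over all ranked genes. Over CpG-rich promoters it was 76.3, 76.5, 76.8 and 0. The 3 longer lists gave medians within 1 point of each other, but that of cKO replicate 1 lay just above the start of its scale. With promoters of 1 kb, or with a −log10 q of at least 5, it fell to 0, while cKO replicate 2 and Ctrl replicate 1 stayed at 64.8 and 64.8 or at 69.5 and 68.9.

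Within the 2 kb limit, Mcts2 was the most open germline DMR promoter in the order of mean percentile. The intron peaks of Peg3 and Impact, near or past that limit and described below, were deeper in every list. Mcts2 is a retrogene for a translation factor and lies in an intron of H13, which encodes a signal peptide peptidase. Its percentile was 93.3 and 92.4 in cKO and 91.1 and 93.9 in Ctrl, with summits 33 to 107 bp upstream of the TSS. In Ctrl replicate 2 it was among the weaker peaks, at rank 6441 of 7037 with 15 fragments and a scaled depth of 4.33, and its percentile is close to the 93.4 at which that list starts. The peak covers the window with 3 ZFP57 matches shown above. The promoter of H13 itself, a separate peak, stood at 86.3, 77.5, 78.5 and 0 in cKO replicate 1, cKO replicate 2, Ctrl replicate 1 and Ctrl replicate 2, the order used for each gene below.

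Inpp5f, which encodes an inositol phosphatase, stood at 92.4, 87.7, 92.8 and 0. This was its main, biallelic promoter. The imprinted transcript starts further down, where weaker peaks lay 57 bp (cKO replicate 2) and 102 bp (Ctrl replicate 1) upstream of its TSS at ranks 21086 and 28270 of their lists, and neither cKO replicate 1 nor Ctrl replicate 2 had one. A stronger peak of the same lists lay 1889 and 1796 bp downstream of that TSS, at ranks 19561 and 11880 with 24 and 33 fragments. Gnas, which encodes the stimulatory G protein alpha subunit, had the same form. Its strongest peak, at 85.8, 83.5, 82.4 and 0, lay 107 to 220 bp upstream of exon 1, and the upstream DMR promoter known as exon 1A was called only in cKO replicate 2 (rank 18107) and Ctrl replicate 1 (rank 22255). Nespas, the antisense RNA at the other DMR of that locus, stood at 73.0, 69.5, 71.3 and 0, with its peak within 78 bp of a TSS.

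Peg3, a zinc finger gene, and Usp29, a ubiquitin protease gene, are transcribed in opposite directions from 1 germline DMR. Their peaks lay in the first intron of Peg3 and not at the TSSs. Peg3 stood at 76.3, 87.2, 82.3 and 0. Usp29 stood at 76.3, 87.2, 60.0 and 0.

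The stronger intron region, chr7:6727463-6729200, held a peak in all 4 lists, at ranks 3715, 4256, 5783 and 5249. Its scaled depth was 26.0, 62.0, 64.7 and 6.35. Its summit was 1975 bp from the Peg3 TSS in Ctrl replicate 1 and 1938 bp from the Usp29 TSS in cKO replicate 2, so the 2 kb limit counted it for Peg3 in cKO replicate 2 and Ctrl replicate 1 and for Usp29 in cKO replicate 2 alone. The weaker region, chr7:6729333-6729699, held a peak in the 3 longer lists at ranks 12124, 34034 and 26750.

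Peg10, a retrotransposon-derived gene of the placenta, and Sgce, which encodes epsilon-sarcoglycan, also share a DMR promoter in opposite directions. The peak at their shared TSSs was modest and present in cKO replicate 2 and Ctrl replicate 1 only, at ranks 33445 and 31548. Peg10's strongest peak lay in its intron, 1923, 1957 and 1915 bp from the TSS, close to the 2 kb limit, and gave percentiles of 88.5, 83.7, 75.5 and 0. Sgce, which that peak does not reach, stood at 0, 62.7, 72.1 and 0.

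The long noncoding RNA Kcnq1ot1, which silences neighbours on its paternal chromosome, stood at 76.6, 80.5, 85.6 and 0, with summits 9 to 125 bp upstream. Peg13, a noncoding RNA in an intron of Trappc9, stood at 81.9, 79.0, 83.0 and 0. Airn, which silences Igf2r, was weak: 0, 54.8, 56.3 and 0, with a summit 18 bp from its TSS in both lists. Ctrl replicate 1 was the highest of the 4 for Kcnq1ot1, Peg13 and Airn.

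Plagl1, which encodes a zinc finger regulator of growth, stood at 69.5, 80.0, 73.9 and 0 with summits 39 to 57 bp upstream of the DMR promoter. Mest, a hydrolase gene, stood at 68.6, 63.5, 68.9 and 0. Grb10, which encodes an adaptor that limits growth signalling, stood at 76.0, 81.2, 69.2 and 0, with its peak 1648 to 1783 bp downstream of an internal TSS. Snrpn, which encodes a spliceosome protein and marks the Prader-Willi control region, stood at 68.8, 61.2, 62.9 and 0 with summits 872 to 1818 bp downstream of an internal TSS. Beside Ctrl replicate 1 alone, the cKO values lay on either side for Plagl1 and Snrpn, below it for Mest and above it for Grb10.

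Of the remaining germline DMR members, Nap1l5 (0, 73.6, 73.6 and 0), Nnat (0, 56.1, 59.3 and 0) and Zrsr1 (0, 56.7, 55.9 and 0) were open in Ctrl replicate 1 and cKO replicate 2 alone. Nap1l5 encodes a nucleosome assembly protein, Nnat the brain proteolipid neuronatin and Zrsr1 a splicing factor. Impact, which encodes a regulator of translation, had 94.2, 0, 0 and 97.5. Those zeros come from the 2 kb limit. A strong peak in one of its introns was present in every list, at ranks 2036, 1946, 2812 and 2876. Its scaled depth was 27.5, 65.3, 70.3 and 7.51, against 18.8, 40.4, 45.6 and 4.33 at the Mcts2 promoter. The summit of the Impact peak lay 1859 and 1358 bp from the annotated TSS in the first and last library. In Ctrl replicate 1 it lay 2260 bp away.

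**Figure D3:**
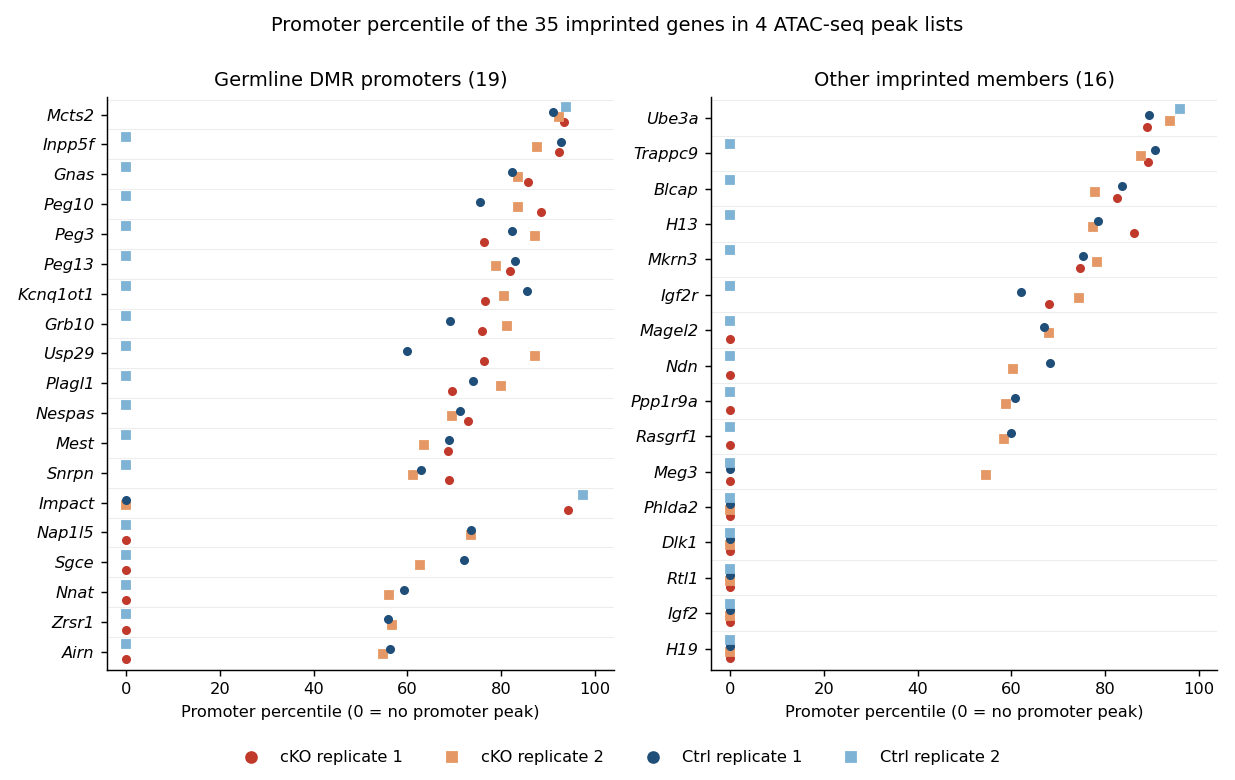
Promoter percentile (x axis, 0 = no promoter peak) of each of the 35 members, with germline DMR members on the left and the others on the right, sorted by the mean over the 4 libraries; each point is 1 library. Mcts2 and Ube3a have a promoter peak in all 4 libraries (any peak in Ctrl replicate 2 is at 93.4 or above), and Ctrl replicate 2 is at 0 for all members but Mcts2, Ube3a and Impact.

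Among the other 16 members, Ube3a was the most open in the order of mean percentile. In cKO replicate 1 and Ctrl replicate 1, Trappc9 stood slightly above it. Ube3a encodes the E3 ubiquitin ligase that is lost in Angelman syndrome and is expressed from the maternal copy in neurons. Its percentile was 89.0, 94.0, 89.4 and 96.0, with summits 53 to 148 bp from the TSS. Trappc9, a trafficking complex gene, stood at 89.1, 87.7, 90.7 and 0, and Blcap, a gene that hosts Nnat in its intron, at 82.6, 77.9, 83.7 and 0. Igf2r, which encodes the receptor that clears IGF2, stood at 68.0, 74.5, 62.1 and 0 with summits within 83 bp of the TSS. Trappc9 and Blcap, both maternally expressed, were above most paternally expressed members in the 3 longer lists. The 9 maternally expressed members as a set were not: their medians in those lists were 68.0, 74.5 and 62.1. The medians of the 24 paternally expressed members were 68.7, 65.7 and 68.6.

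The Prader-Willi cluster genes Mkrn3, Magel2 and Ndn are paternally expressed and follow the Snrpn control region. Mkrn3 stood at 74.6, 78.3, 75.3 and 0. Magel2 (0, 68.0, 67.1 and 0) and Ndn (0, 60.5, 68.3 and 0) were open in Ctrl replicate 1 and cKO replicate 2 alone. So were Ppp1r9a, which encodes neurabin, an actin-binding protein of dendritic spines (0, 58.9, 60.8 and 0), and Rasgrf1, which encodes a Ras exchange factor of neurons (0, 58.4, 59.9 and 0).

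The members without a promoter peak came from clusters with a paternally methylated DMR, apart from Phlda2, a placental growth restrictor controlled from the Kcnq1ot1 region. They were H19, Igf2, Dlk1, Rtl1 and Phlda2. H19 is a noncoding RNA, Igf2 a growth factor gene, Dlk1 a Notch-related ligand gene and Rtl1 a retrotransposon-derived gene. Meg3, the noncoding RNA of the Dlk1 cluster, had 1 weak promoter peak, at rank 42266 of 44535 in cKO replicate 2 with 12 fragments, and a deeper one 2112 bp into the gene, just past the limit, at ranks 17108 and 16528 in cKO replicate 2 and Ctrl replicate 1.

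Although H19 had no promoter peak, its control region did. In Ctrl replicate 1 the summits lay 2230 and 3667 bp upstream of its TSS with 14 and 19 fragments, at ranks 37010 and 24042, and the farther one was also found in cKO replicate 2 with 16 fragments at rank 33489. Both rest on few fragments, below or near the list median of 18 in Ctrl replicate 1 and 20 in cKO replicate 2. Another peak, 16082 bp downstream of the TSS, was present in the same 2 lists at ranks 24284 (cKO replicate 2) and 14214 (Ctrl replicate 1). The list of cKO replicate 1, with fewer peaks, and that of Ctrl replicate 2 had none within 20 kb of H19.

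**Figure D4:**
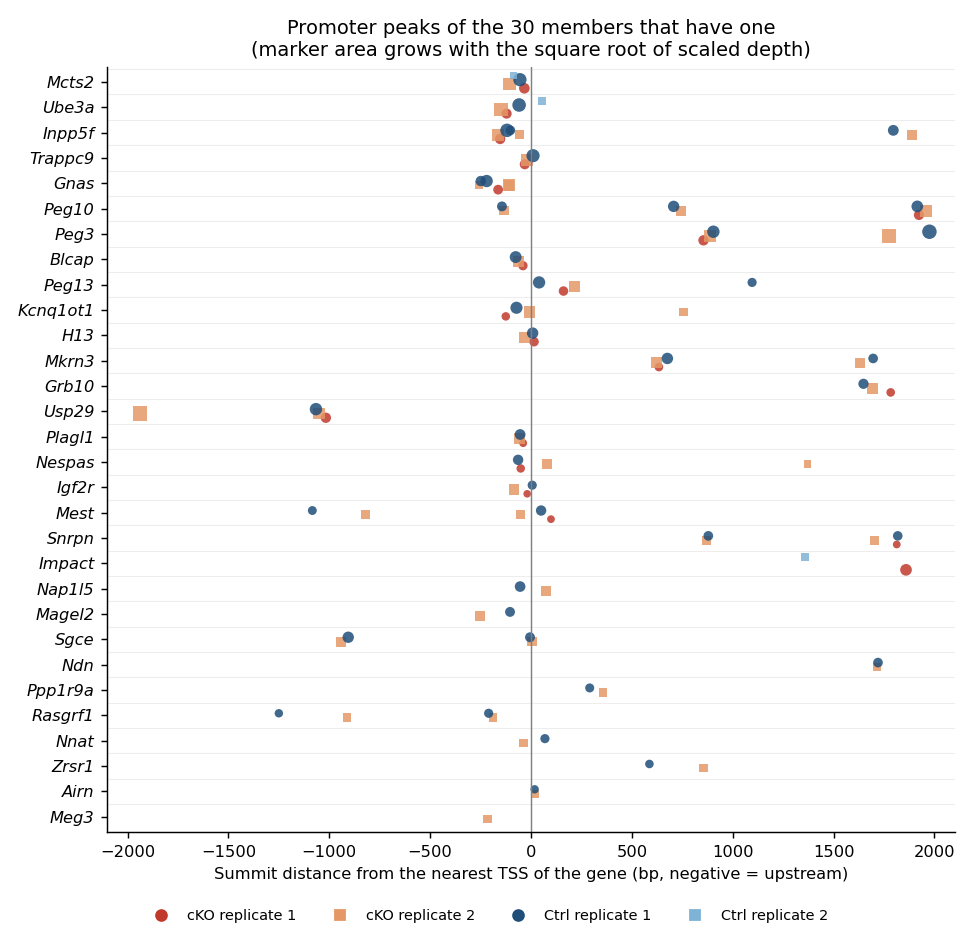
Distance of each promoter peak summit from the nearest TSS of the gene (x axis, bp, negative = upstream) for the 30 members that have one (y axis); colours and shapes are the 4 libraries, and marker area grows with the square root of scaled depth. Peg10, Grb10, Impact and the strong Peg3 and Usp29 peak sit near the 2 kb limit, whereas Mcts2, Ube3a, Trappc9 and H13 sit at the TSS.

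Over gene bodies and 20 kb on either side, the members span 3.33 Mb, 0.122% of the genome. These territories held 37 peaks in cKO replicate 1, 88 in cKO replicate 2, 101 in Ctrl replicate 1 and 13 in Ctrl replicate 2. That is 11.1, 26.4, 30.3 and 3.91 peaks per Mb, above the 7.85, 16.3, 17.0 and 2.58 of the whole genome in each list. The whole genome includes stretches far from any gene. The density around all ranked genes was not computed, so the higher values cannot be read as a trait of imprinted genes. The cKO mean was 62.5 ± 36.1 (SD, n = 2) and the Ctrl mean 57.0 ± 62.2, a difference of 5.5 that is smaller than either SD. Trappc9, the longest at 512 kb with its flanks, held 6, 11, 18 and 3 peaks, and Rtl1 and Phlda2 held 0 in every list.

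The peaks merged into 121 regions, of which 46 were in 1 list, 39 in 2, 29 in 3 and 7 in all 4. No region was shared by the cKO lists while absent from both Ctrl lists, beside 0.692% of the 58652 merged regions of the whole series, and none was in both Ctrl lists alone, beside 0.305%. Both zeros are near that background. Of the 121 regions, 36 were in cKO replicate 2 and Ctrl replicate 1 only, the 2 longest lists. The 3 longer lists shared 35, a count that includes the 7 in all 4. The shares of all merged regions by number of lists or with these 2 patterns were not computed, so these counts describe the lists and not the members.

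The 7 regions in all 4 lists were the Mcts2 promoter, the Peg3 intron, the Impact intron, the Ube3a promoter, the promoter of Commd1, in whose intron Zrsr1 lies, an intron of Ppp1r9a and a site upstream of Trappc9. The first 3 lie at maternally methylated germline DMRs. The site upstream of Trappc9, chr15:73067338-73067874, was the deepest of the 7 in the 3 longer lists. It lies 6399 bp from the nearest annotated TSS in the set used, in no gene, and reached ranks 455, 106, 175 and 1358 with scaled depths of 33.3, 98.0, 107 and 9.24. It has 57.9% GC and no match to the 3 motifs.

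The Ppp1r9a intron region went against the order of the others. It is repeat-masked over 100% of its length and holds 0 CpGs. Its scaled depth was 21.2, 28.2, 34.5 and 49.7, highest in Ctrl replicate 2, where it had rank 68. In the other 6 regions Ctrl replicate 2 was the lowest and Ctrl replicate 1 the highest. The part played by the repeat-rich content of Ctrl replicate 2 in this was not tested.

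**Figure D5:**
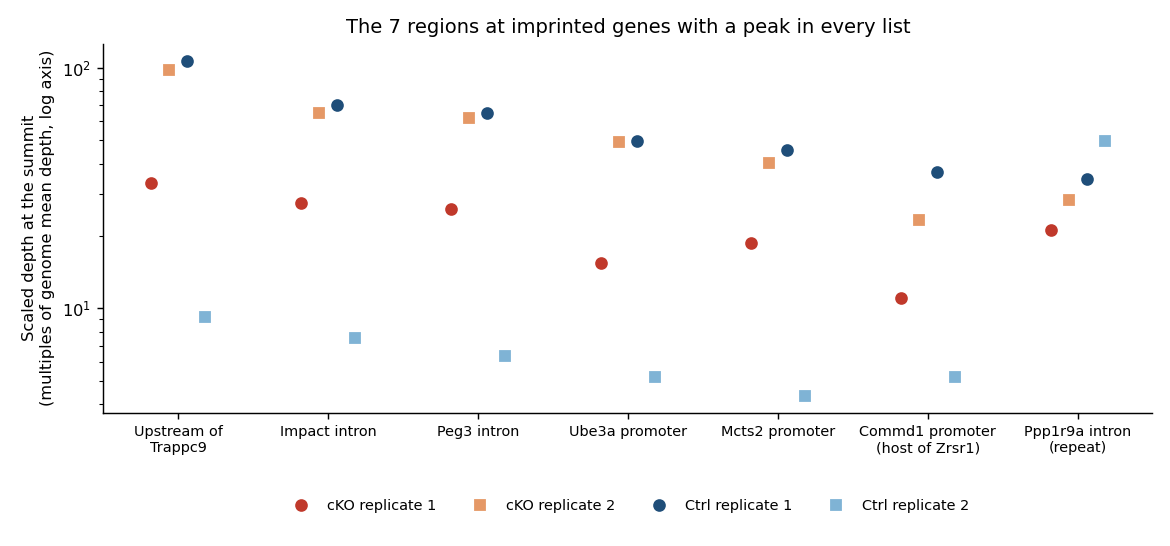
Scaled depth at the summit (y axis, multiples of the genome's mean fragment depth, log axis) of the 7 regions at members with a peak in every list, sorted by Ctrl replicate 1; each point is 1 library. Ctrl replicate 2 is lowest in 6 regions and highest in the repeat-masked Ppp1r9a intron.

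Both cKO libraries ranked above both Ctrl libraries at 5 of the 30 members with a promoter peak, beside 19.9% of the 16187 genes with one, and below both at 0 of 30, beside 2.61%. The 5 were Igf2r, Usp29, Peg10, Grb10 and Gnas. Their mean percentile was higher in cKO by 40.2, 51.8, 48.3, 44.0 and 43.5 points in that order, and Ctrl replicate 2 was at 0 for each. The share among members was close to that of all genes.

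No member passed a test. With 4 libraries the two-sided exact permutation test has 6 assignments and cannot go below p = 0.333, which these 5 members reached, and the Benjamini-Hochberg adjusted p over the 16187 genes was 1. Without Ctrl replicate 2, both cKO libraries were above Ctrl replicate 1 at 6 of 30 members, beside 23.1% of 16152 genes, and below it at 12, beside 37.2%. Without Ctrl replicate 1, 17 of 30 were above and 3 below, beside 58.3% and 8.51% of genes. Without cKO replicate 1 the counts were 12 and 0 of 30, beside 45.0% and 4.78%, and without cKO replicate 2 they were 8 and 1 of 29, beside 33.8% and 4.90%. Without Ctrl replicate 2, the 6 above were the same 5 genes and Mcts2, and the 12 below were Airn, Sgce, Ppp1r9a, Mest, Ndn, Nnat, Blcap, Kcnq1ot1, Inpp5f, Peg13, Trappc9 and Rasgrf1.

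At Usp29 the strong Peg3 intron peak counted by its summit in cKO replicate 2 and not in Ctrl replicate 1. With any overlap in place of the summit, the difference at Usp29 was 47.5 points and the groups still did not overlap. Within 1 kb of a TSS only Igf2r and Gnas stayed among the 5, and Peg10 turned to -4.21 points. The shorter list of cKO replicate 1 starts at 67.5, so any peak there outranks the Ctrl replicate 1 values of Igf2r (62.1) and Usp29 (60.0). The peak of Igf2r in cKO replicate 1 had 10 fragments and rank 20106 of 21404. By scaled depth, cKO replicate 1 was below Ctrl replicate 1 at each of the 5, with 4.82 against 10.5 at Igf2r, 16.9 against 35.1 at Usp29, 15.4 against 27.7 at Peg10, 8.20 against 16.03 at Grb10 and 13.5 against 34.5 at Gnas. So by depth none of the 5 had both cKO libraries above Ctrl replicate 1. The median over all genes with a promoter peak was likewise 11.1 in cKO replicate 1 against 21.6 in Ctrl replicate 1. This order is therefore not particular to the 5, and the share of all genes with it was not computed.

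Outside the 35 members, 6, 15, 15 and 1 of the 32 other imprinted genes had a promoter peak in the 4 libraries. Tssc4 and Nap1l4, neighbours of the Kcnq1ot1 cluster, were the most open in the 3 longer lists, at 94.0, 97.9 and 98.5 and at 89.6, 91.9 and 92.1. Cdkn1c, the cell cycle inhibitor silenced by Kcnq1ot1, stood at 0, 60.3, 71.5 and 0. None passed the test: Copg2 was higher in both cKO libraries (83.6, 83.6, 81.3 and 0) and Commd1 lower (85.3, 82.3, 89.0 and 96.0), each at the lowest exact permutation p of 0.333.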

How the data were processed

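Hippocampal ATAC-seq of 2 cKO and 2 Ctrl libraries was analysed from the peak list of each library. According to the study's methods, the authors ran Cutadapt, Bowtie2 (mm10), removal of blacklisted, mitochondrial and duplicate reads, the Tn5 shift and MACS2 (version 2.2.7.1). There is 1 list per library, each with its own peaks and library name; whether any reads were pooled is not given in the sources used here. The deposited lists hold a display score, which was not used, a fold enrichment (ratio of summit depth to local background), −log10 p-values and −log10 q-values, of at least 1.31. Since lists called separately share no scale, peaks were ranked by −log10 p within a list. Whole fragments at each summit were recovered from the deposited fold and −log10 p (fitting within 0.01 for 100% of the peaks where it could be computed) and divided by the lowest background of the list, 1.62 to 3.46 fragments, as the mean depth. Median depth was 18 to 20 fragments a peak, which limits precision.

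TSSs came from the basic set of GENCODE M21 and sequence from GRCm38.p6 (RefSeq). Promoter percentiles were compared by an exact permutation test over libraries with Benjamini-Hochberg adjustment over all genes with a promoter peak. Motif matches were counted on both strands. The code was checked on simulated data and used Python 3 with pandas, scipy, pysam and matplotlib. Groups came from the sample titles. All 35 members are named; a genotype difference of a single member is given where the groups do not overlap, and sequences were read at germline DMR members with a promoter peak in at least 3 lists, plus the H19 control region. Printed are windows outside exons that held a match (at Snrpn, the one with more matches). The members and gene lists were chosen with earlier results of these data known. Alternatives were promoters of 1 kb, overlap in place of the summit, −log10 q of at least 5, lists cut to 7037 peaks, no repeat-masked peaks, mid-ranks, protein-coding genes alone, other flanks, each library left out, a replicate block and, chosen after seeing the data, TSSs of all transcripts.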

Additional observations from a re-analysis of the deposited data

How the results depend on the processing

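The differences between cKO and Ctrl depend on Ctrl replicate 2, whose list is the shortest, and the cause was not tested. Leaving out each library in turn gave a difference in the number of members with a promoter peak of -3.5 to 21.5 (9 with all 4), in median percentile of 0.254 to 69.2 (34.7), in median scaled depth of -6.48 to 10.5 (2.02) and in peaks in gene bodies and flanks of -38.5 to 49.5 (5.5). The lowest values were those without Ctrl replicate 2, and the scaled depth and the peak number also turned without cKO replicate 2, to -1.64 and -20. Members higher in both cKO libraries numbered 6 to 17 over these settings (5 with all 4) and members lower 0 to 12 (0), with 17 without Ctrl replicate 1 beside 58.3% of all genes with a peak and 12 without Ctrl replicate 2 beside 37.2%. Promoters of 1 kb gave a median percentile difference of 0.0125, a scaled depth difference of -1.07, 2 of 26 members higher, beside 20.1% of genes, and a difference of -4.21 points at Peg10. Lists of equal size gave a median percentile difference of 0, -0.5 peaks in gene bodies and flanks and 2 of 13 members higher, beside 17.8% of genes. The median percentile difference was 0.305 with a −log10 q of at least 5 and 11.4 where genes lacking a peak shared their mid-rank, and lists of equal size gave a difference of 2 in members with a promoter peak. The other settings gave 5 to 7 members higher, beside 19.1% to 20.5% of genes. They gave 0 members lower, beside 1.76% (−log10 q of at least 5) to 10.3% (mid-ranks) of genes. With a −log10 q of at least 5, Mcts2 took the place of Igf2r among the 5. The correlation of same-numbered deviations was 0.0414, and with 2 libraries in each group the crossed value is its mirror image, -0.0414. It cannot tell whether replicate numbers paired the samples. The replicate block gave 9, 34.7, 2.02 and 5.5 in the order above, as it must in a balanced design, and its sign-flip test cannot go below an exact p of 0.5. At weak sites such as the H19 control region, which rest on few fragments, a missing peak is not absence, and its cause was not tested.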
